A study of Sus scrofa with 2 samples.

Results

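The genes of the voltage-gated calcium channel alpha1 subunits were followed in RNA of the pig cochlear lateral wall. This tissue contains the stria vascularis (SV), a secretory epithelium. Members were the features whose gene symbol in the deposited expression table, or, where the table had no symbol, whose gene description or Ensembl name, was 1 of 10 genes, CACNA1A to CACNA1I and CACNA1S. This gave 9 features of 27622 in all, which belonged to 8 of the 10 genes. CACNA1A had 2 features, and no row matched CACNA1B or CACNA1H, which were not analysed here. CACNA1G was selected on its lower measured level in the r/r sample, so that the values of the comparison below are a description and carry no test.

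Total RNA of Rongchang pig lateral walls with the SV was sequenced in 1 library with the genotype MITF R/r and 1 with MITF r/r. MITF is the master transcription factor of melanocytes, and r is the allele behind albinism and deafness in these pigs. The study describes r as recessive, and as semi-recessive for hearing loss because a few heterozygotes were hearing impaired. Both genotypes carry r, so that no SV free of it was compared, and the sources used here do not say how many animals gave each library. The labels give the age as postnatal day 1, whereas the study's text places this experiment at an embryonic stage, and the point could not be settled here. Expression is given as RPKM, in which mapped reads are divided by the length of the gene model and by the sequencing depth, so that levels can be compared between genes. Whole reads behind these values were recovered, which gave 15829244 mapped reads to the R/r sample and 14258672 to the r/r sample. A single read on a gene model of 1 kb was worth 0.0632 RPKM in the R/r sample and 0.0701 RPKM in the r/r sample. Ratios are log2 values of the r/r level over the R/r level with no pseudocount added, and their 95% intervals are exact binomial limits (Clopper-Pearson) for the part of a gene's reads that came from the r/r sample. The intervals cover counting error only, and with 1 library per genotype no difference had a replicate check.

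The alpha1 subunit forms the pore and the voltage sensor of a calcium channel, and its gene sets the current type. L-type channels inactivate slowly, and P/Q-, N- and R-type channels serve mainly transmitter release in neurons. T-type channels open near the resting potential and inactivate fast. In the cochlea the L-type channel encoded by CACNA1D carries most of the calcium current at the synapses of inner hair cells, and its loss causes deafness. The SV itself holds marginal, intermediate and basal cells, and its intermediate cells are melanocytes that descend from the neural crest.

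The levels of the alpha1 genes were low and were led by L-type genes. Summed over the 8 genes, with the feature of higher mean RPKM for CACNA1A, the alpha1 level was 12.7 RPKM in the R/r sample and 9.32 RPKM in the r/r sample. The L-type genes held 79.3% of this sum in the R/r sample and 89.6% in the r/r sample. The genes missing from the sum, CACNA1B (N-type) and CACNA1H (T-type), are not L-type, so the L-type share may be too high. The share of the T-type genes was 16.7% in the R/r sample and 9.0% in the r/r sample. CACNA1A and CACNA1E together made up 4.01% and 1.44%. The non-L-type share was lower in the r/r sample, and most of that difference in RPKM came from CACNA1G. That gene was chosen on its lower level, so nothing is read from the shares. The summed L-type level itself was 10.1 RPKM in the R/r sample and 8.35 RPKM in the r/r sample.

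**Figure D1:**
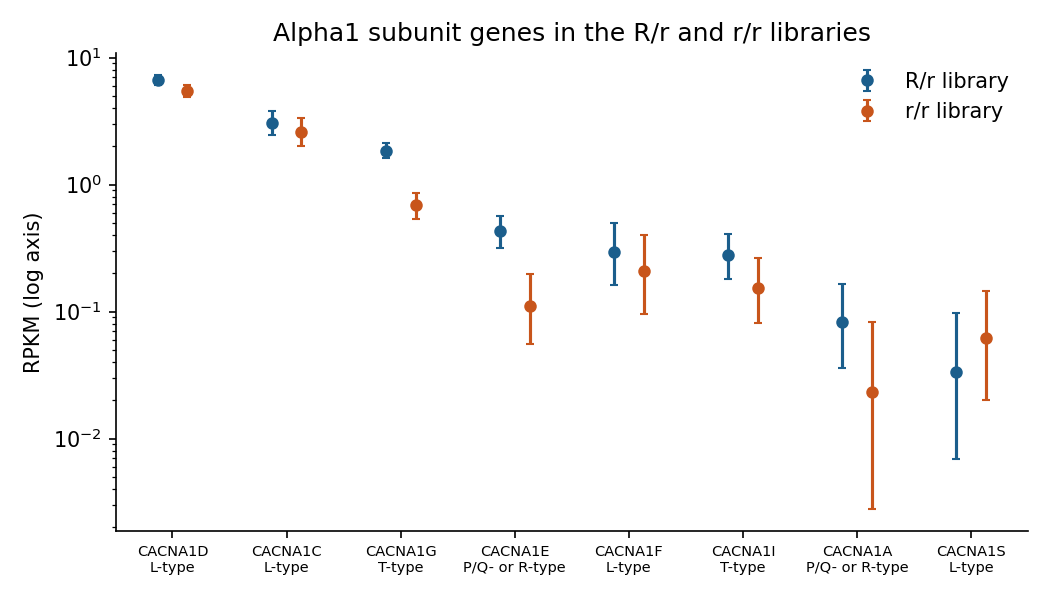
RPKM values (log axis) of the 8 alpha1 genes with a feature, with the R/r library in blue and the r/r library in orange, ordered by the R/r level. Bars are exact Poisson 95% intervals on the recovered reads. The interval of the log2 ratio lay wholly below 0 for CACNA1D, CACNA1E and CACNA1G, beside 12.6% of all features. CACNA1G was chosen on its lower level.

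CACNA1G, the T-type gene with the highest level, had 1.85 RPKM (95% Poisson interval 1.62 to 2.11) in the R/r sample and 0.685 RPKM (0.538 to 0.860) in the r/r sample. These values came from 222 and 74 reads on a gene model of 7573 bases. Its log2 ratio was -1.43 (95% interval -1.83 to -1.05), a level 2.70-fold lower in the r/r sample, and the interval lay wholly beyond 2-fold. Among 9638 features with at least as many reads, 15 features (0.156%) had a lower ratio, a rank that follows from how the gene was chosen. CACNA1I, the other T-type gene with a feature, is known mainly from thalamic neurons. It had 0.277 RPKM in the R/r sample and 0.154 RPKM in the r/r sample, from 26 and 13 reads. Its log2 ratio of -0.85 pointed the same way but had an interval of -1.93 to 0.16, so that a difference was not detectable at this depth. RNA was taken from whole tissue, and fewer cells of a type and less RNA per cell cannot be told apart for any of these genes.

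CACNA1E, which encodes the R-type pore, was the member with the lowest ratio. It had 0.428 RPKM (95% Poisson interval 0.314 to 0.569) in the R/r sample and 0.111 RPKM (0.0555 to 0.199) in the r/r sample, from 47 and 11 reads on 6945 bases. The log2 ratio was -1.94 (95% interval -3.04 to -0.98), a level 3.85-fold lower, with an interval below 0 that reached just short of 2-fold. The intervals of CACNA1E and CACNA1G overlapped, so that which of them was lower in ratio could not be told. With a pseudocount of 1 RPKM, which lies between the levels of CACNA1G and above those of CACNA1E, the log2 ratio was -0.76 for CACNA1G and -0.36 for CACNA1E, both short of 2-fold.

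CACNA1A encodes the P/Q-type pore of fast central synapses. Its longer feature, ENSSSCG00000013754, had 0.0832 RPKM in the R/r sample and 0.0231 RPKM in the r/r sample, from 8 and 2 reads. The log2 ratio of -1.85 had an interval of -5.12 to 0.48 and so reached past no change. The shorter feature, ENSSSCG00000013750, was listed at 0 in the R/r sample, so that levels below 0.231 RPKM (3 reads) could have been missed, and 1 read gave it 0.0854 RPKM in the r/r sample. CACNA1A was therefore near the limit of detection in both libraries.

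Of the L-type genes, CACNA1D had the highest level of all members. It had 6.71 RPKM (95% Poisson interval 6.11 to 7.34) in the R/r sample and 5.47 RPKM (4.90 to 6.07) in the r/r sample, from 470 and 345 reads. The log2 ratio, -0.30 (95% interval -0.50 to -0.09), was below 0 and far from 2-fold. CACNA1C, the L-type gene of heart and smooth muscle, had 3.07 RPKM (2.45 to 3.80) in the R/r sample and 2.61 RPKM (2.01 to 3.32) in the r/r sample. Its ratio of -0.24 (-0.73 to 0.25), from 85 and 65 reads, had an interval that included no change and did not reach 2-fold in either direction. The recovered length of CACNA1C, 1748 bases, is short, so that its true reads may be a multiple and its interval narrower.

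The remaining L-type genes belong to other tissues. CACNA1F, the channel of photoreceptor synapses, had 0.295 RPKM in the R/r sample and 0.210 RPKM in the r/r sample, from 14 and 9 reads, with a log2 ratio of -0.49 (-1.88 to 0.82). CACNA1S, the voltage sensor of skeletal muscle, had 0.0337 RPKM in the R/r sample and 0.0623 RPKM in the r/r sample. It was the 1 member with a ratio above 0, at 0.89 (-1.47 to 3.57), from 3 and 5 reads. Neither gene could be called different at this depth.

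Set against CACNA1D within each library, which removes the scaling between libraries, CACNA1G stood at 27.6% of the level of CACNA1D in the R/r sample and at 12.5% in the r/r sample. CACNA1E stood at 6.37% in the R/r sample and 2.03% in the r/r sample. CACNA1C stood at 45.8% and 47.7%, CACNA1F at 4.40% and 3.85%, and CACNA1I at 4.13% and 2.81%. CACNA1A stood at 1.24% and 0.42%, and CACNA1S at 0.50% and 1.14%. These percentages have no interval, and nothing is read from that of CACNA1G, which was chosen on this difference.

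The order of levels in the R/r sample was CACNA1D, CACNA1C, CACNA1G, CACNA1E, CACNA1F, CACNA1I, CACNA1A and CACNA1S. Counting error did not separate CACNA1E from CACNA1F, CACNA1F from CACNA1I, or CACNA1A from CACNA1S. In the r/r sample the order was CACNA1D, CACNA1C, CACNA1G, CACNA1F, CACNA1I, CACNA1E, CACNA1S and CACNA1A, and no neighbours from CACNA1F downwards were separated. CACNA1G kept place 3 in both, but CACNA1C was 1.66 times its level (95% interval 1.28 to 2.14) in the R/r sample and 3.81 times (2.68 to 5.38) in the r/r sample. CACNA1E moved from place 4 to place 6.

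Counted over the 8 genes, 3 (CACNA1A, CACNA1E and CACNA1G) had a level at least 2-fold lower with r/r, beside 3.89% of all 19347 features above 0 in both libraries. At least 2-fold higher were 0 genes, beside 3.78% of all features. The contrast was used to choose CACNA1G, so nothing is read from these shares. Only 3 of the 8 genes, CACNA1C, CACNA1D and CACNA1G, reached 1 RPKM in a library. Among them CACNA1G was the 1 gene at least 2-fold lower, beside 2.2% of 16331 features with that minimum, and 0 genes were higher, beside 1.78%. CACNA1G reached this minimum in the R/r sample only, so that nothing is read from these shares either. With at least 20 reads over both libraries, 6 genes remained, of which CACNA1E and CACNA1G were at least 2-fold lower, beside 1.86% of 16521 features, and 0 were higher, beside 1.35%. The interval lay wholly below 0 for 3 genes, CACNA1D, CACNA1E and CACNA1G, beside 12.6% of all features, and wholly above 0 for 0 genes, beside 9.77%. The median log2 ratio of the 8 genes was -0.67, against -0.01 over all features, and it was -0.30 with a minimum of 1 RPKM and -0.16 with a pseudocount of 1 RPKM.

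**Figure D2:**
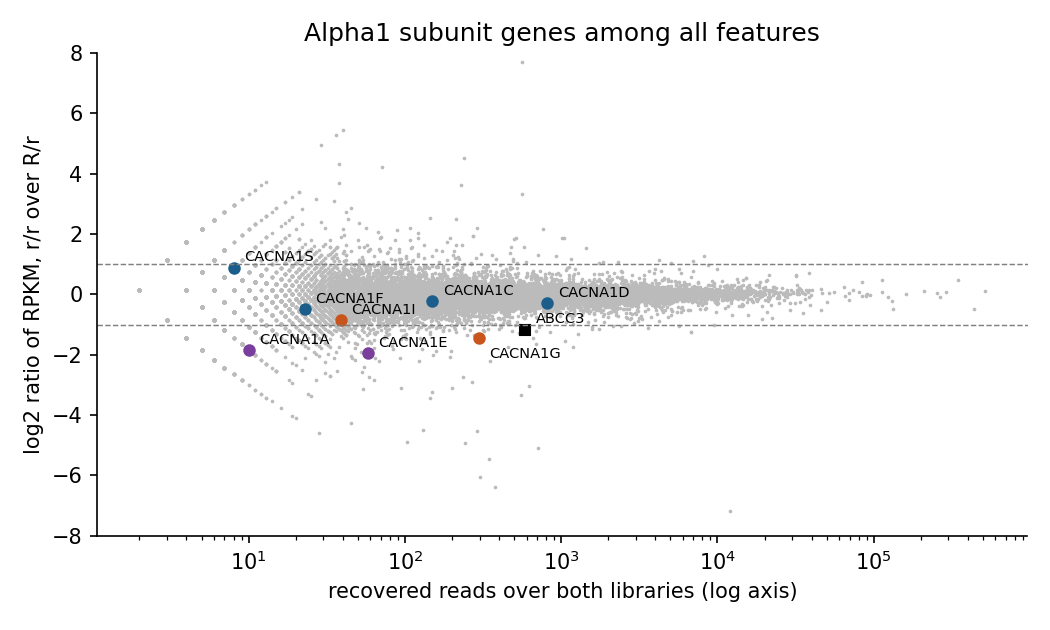
Log2 ratio of RPKM, r/r over R/r, against the recovered reads over both libraries (log axis), with all features above 0 in both in grey, the alpha1 genes coloured by current type (blue L-type, purple P/Q- and R-type, orange T-type) and ABCC3 as a black square. Dashed lines mark 2-fold, 2 features beyond a log2 ratio of 8 are not drawn, and CACNA1G and CACNA1E lie below the band of features with as many reads.

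Auxiliary subunits bring the alpha1 pore to the membrane and tune its gating. All 4 alpha2delta genes, which encode the extracellular subunit, had a feature. CACNA2D1 had the highest level, with 11.0 RPKM in the R/r sample and 7.40 RPKM in the r/r sample, and the lowest ratio at -0.57 (95% interval -0.76 to -0.39). CACNA2D2 had 6.21 RPKM in the R/r sample and 6.87 RPKM in the r/r sample, a ratio of 0.14 (-0.12 to 0.41). CACNA2D3 had 2.68 RPKM in the R/r sample and 2.60 RPKM in the r/r sample, and CACNA2D4 had 1 and 2 reads. Of these genes, CACNA2D1 alone had an interval off 0.

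Beta subunits bind the alpha1 subunit in the cytoplasm, and 3 of the 4 genes had a feature. CACNB1, the beta subunit of skeletal muscle, had 4.84 RPKM in the R/r sample and 3.43 RPKM in the r/r sample, a ratio of -0.50 (-0.79 to -0.20). CACNB2, the main beta subunit of the heart, had 3.75 and 3.50 RPKM, a ratio of -0.10 (-0.34 to 0.15). CACNB4 had a ratio of -0.11 (-0.80 to 0.57). CACNB3 was not analysed here.

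Gamma subunits act on calcium channels or, in part of the family, on AMPA receptors. The most abundant genes of the subunit lists, CACNG4 and CACNG5, were of this class. Whether they act on calcium channels in this tissue was not tested. CACNG4 had 29.2 RPKM in the R/r sample and 22.0 RPKM in the r/r sample, with a ratio of -0.40 (-0.57 to -0.24). CACNG5 had 19.2 RPKM in the R/r sample and 13.5 RPKM in the r/r sample, with a ratio of -0.51 (-0.82 to -0.20). Both levels lay above that of CACNA1D in each library. CACNG1, the gamma subunit of the skeletal muscle channel, had 6 and 2 reads and a ratio of -1.43 (-4.77 to 1.05). CACNG2, CACNG6 and CACNG7 had from 4 to 18 reads over both libraries and intervals that included 0, CACNG3 was listed at 0 in both, and CACNG8 was not analysed here.

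Over the 16 auxiliary genes together, 13 were above 0 in both libraries, and 1 was at least 2-fold lower and 1 at least 2-fold higher, CACNG1 and CACNA2D4, each with 8 or fewer reads, beside 3.89% and 3.78% of all features. The interval lay wholly below 0 for 4 of the 13, CACNA2D1, CACNB1, CACNG4 and CACNG5, with ratios of -0.57 to -0.40, beside 12.6% of all features. The summed level of all auxiliary genes was 79.7 RPKM in the R/r sample and 62.4 RPKM in the r/r sample. The median ratio of the 13 genes was -0.10. No auxiliary gene with 20 reads or more was as low in ratio as CACNA1G or CACNA1E.

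**Figure D3:**
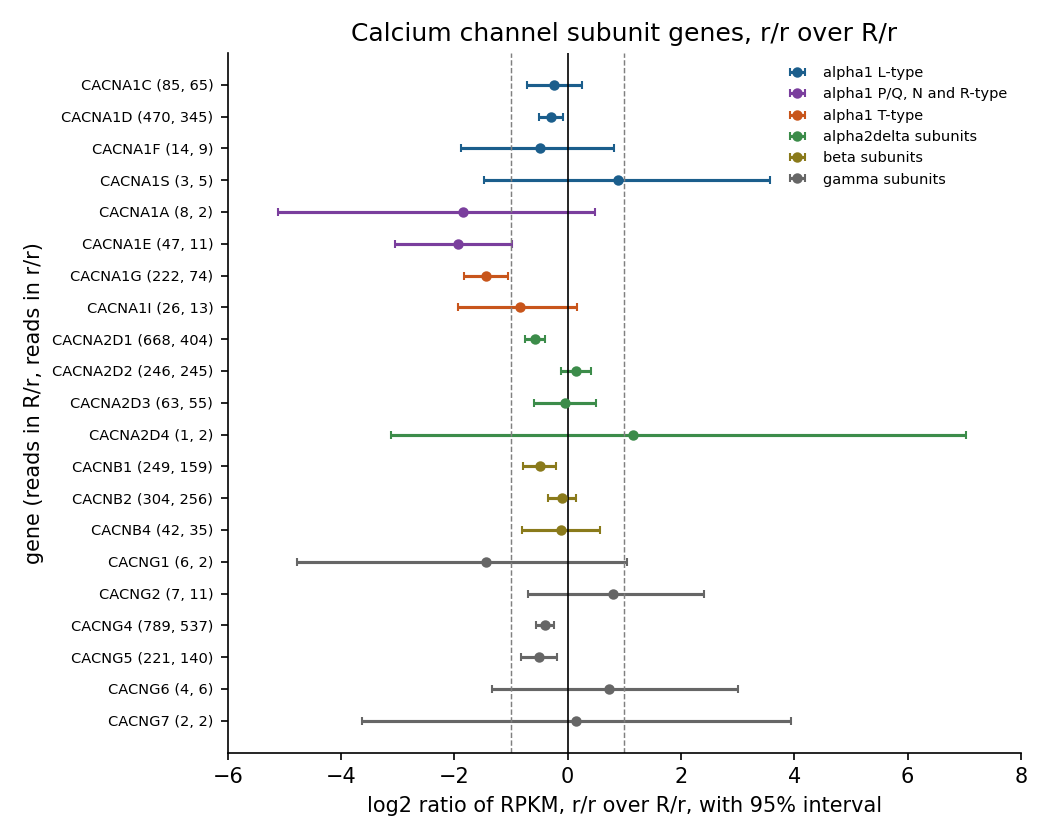
Log2 ratio of RPKM, r/r over R/r, of each calcium channel subunit gene above 0 in both libraries, with reads in the R/r and r/r samples in parentheses and exact 95% Clopper-Pearson intervals as bars. Dashed lines mark 2-fold; the interval of CACNA1G lies wholly to the left of the lower line, whereas those of CACNA1C and CACNA1D lie between the lines.

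Of 11 genes that regulate calcium channels, 9 were above 0 in both libraries, with a median ratio of -0.19. STAC2, an adaptor that slows inactivation of L-type channels, had the highest level, 33.5 RPKM in the R/r sample and 24.2 RPKM in the r/r sample, with a ratio of -0.47 (-0.59 to -0.35). STAC had the lowest ratio among those with at least 20 reads, -0.78 (-1.25 to -0.32), and STAC3, the adaptor of the skeletal muscle channel, the highest at 0.55 (-0.09 to 1.19). CABP2, a calcium sensor that sustains the current of the CACNA1D channel in hair cells, had 0.917 RPKM in the R/r sample and 0.437 RPKM in the r/r sample. It was the 1 regulator at least 2-fold lower, with 7 and 3 reads and an interval of -3.65 to 1.06.

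Calcium release channels sit in the endoplasmic reticulum, and of 6 genes 5 were above 0 in both libraries, with a median ratio of -0.11. RYR1, the partner of the CACNA1S channel in muscle, had 0.246 RPKM in the R/r sample and 0.292 RPKM in the r/r sample, a ratio of 0.24 (-0.29 to 0.78). ITPR1, a receptor of inositol trisphosphate, had the highest level and ratio, with 67.9 RPKM in the R/r sample and 92.0 RPKM in the r/r sample, at 0.44 (0.36 to 0.52). ITPR3 had the lowest ratio, -0.40 (-0.66 to -0.13). The release channels thus included a gene higher and genes lower in the r/r sample, and 0 were 2-fold apart.

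Calcium pumps and exchangers, 10 genes with a feature, had a median ratio of -0.14. ATP2C1, the pump of the Golgi apparatus, was the most abundant, with 103 RPKM in the R/r sample and 106 RPKM in the r/r sample. ATP2A3 had the highest ratio, 0.71 (0.52 to 0.90), and ATP2B2, the plasma membrane pump of hair cell bundles, the lowest at -0.60 (-1.15 to -0.06). Store operated entry had 5 genes with a median of -0.15, from -0.26 in STIM1 to 0.13 in ORAI2, and ORAI3 had the highest level with 42.2 and 35.9 RPKM. None of these genes differed 2-fold.

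Calcium effectors, 10 genes with a feature, had a median ratio of -0.03. The ratios with at least 20 reads ran from -0.29 in NFATC4 to 0.09 in NFATC3. Voltage-gated sodium channels are relatives of the alpha1 subunits. They were listed together with the sodium leak channel NALCN, which had no feature. Of the 11 genes in that list, 5 were above 0 in both libraries with a median ratio of 0.15. SCN3A, SCN7A, SCN10A and SCN11A were listed at 0 in both, and SCN9A at 0 in the r/r sample after 1 read in the R/r sample. Of the 2 genes with at least 20 reads, SCN8A, at the highest mean level of the list, had 0.340 RPKM in the R/r sample and 0.411 RPKM in the r/r sample, and SCN2A had a ratio of -0.79 (-1.93 to 0.28). No gene of these lists differed 2-fold with an interval off 0. Of all features with at least 20 reads, 1.86% were at least 2-fold lower and 1.35% at least 2-fold higher. Nothing is therefore read from the absence of such genes here.

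The tissue was checked against markers of its cells. Marginal cell genes were abundant, with ATP1B2 at 915 RPKM in the R/r sample and 522 RPKM in the r/r sample, a ratio of -0.81, and SLC12A2 at 0.10. The 4 marginal cell genes with a feature summed to 1575 and 1160.3 RPKM, with a median ratio of -0.24. Basal cell and fibrocyte genes summed to 7893 and 5877 RPKM over 4 genes, with a median of -0.15, from COCH at -0.47, the most abundant, to TBX18 at 0.25. The libraries thus held the epithelium and the fibrocytes of the lateral wall in both genotypes.

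Most genes of the melanocyte list were lower in the r/r sample. Of 12 genes, 11 were above 0 in both libraries, 8 were at least 2-fold lower and 0 at least 2-fold higher, beside 3.89% and 3.78% of all features. The list is made up largely of pigment genes, and S100B (0.04), MAGED1 (-0.01), MCAM (-0.02) and SOX9 (-0.16), which are also used as markers of melanocytes and were looked up after the list's values were seen, hardly differed. The list summed to 405 RPKM in the R/r sample and 92.5 RPKM in the r/r sample. DCT, a melanin synthesis enzyme and the most abundant of the list, had 171 RPKM in the R/r sample and 1.19 RPKM in the r/r sample. The ratio was lowest in TRPM1, at -10.64 (-15.95 to -8.16) with 1 read in the r/r sample, and ran from -7.17 to -1.75 in DCT, KCNJ13, TYR, SLC45A2, PMEL, EDNRB and KCNJ10. MLANA was listed at 0 in the r/r sample, and TYRP1 had 1 read in each library. KIT had the highest ratio with at least 20 reads, 0.02, and the most abundant of the MITF features, in which isoforms were not separated, had -0.45. Each of the 8 lower genes had a lower ratio than CACNA1G, and the part of melanocytes in the result was not tested.

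Neuronal and glial markers did not move in 1 direction. Of 11 neuronal genes, 9 had a feature, and of the 5 with at least 20 reads 2 were lower (GAP43 and STMN2) and 3 higher. The list had a summed level of 11.6 RPKM in the R/r sample and 7.29 RPKM in the r/r sample. GAP43, the most abundant, had 7.29 RPKM in the R/r sample and 3.19 RPKM in the r/r sample, a ratio of -1.19 (-1.88 to -0.54), and STMN2 had -0.88 (-1.63 to -0.16). These were the 2 neuronal genes that reached 1 RPKM, with a median of -1.03, whereas the median over all 8 above 0 in both libraries was 0.12. NEFL was higher in the r/r sample, with 3 and 35 reads and a ratio of 3.70 (2.03 to 6.04), and NEFH was listed at 0 in both. Schwann cell and glial genes, 6 of 8 with a feature, summed to 109 RPKM in the R/r sample and 178 RPKM in the r/r sample. GFAP, the most abundant, had a ratio of 1.28 (1.21 to 1.34), and CDH19 was listed at 0 in the r/r sample after 32 reads in the R/r sample. Voltage-gated calcium channels are typical of neurons, and the part of these cells in the result was not tested.

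Hair cell markers, whose cells also use alpha1 channels, were low. The genes of this list, 8 of 9 with a feature, summed to 4.31 RPKM in the R/r sample and 2.56 RPKM in the r/r sample. Of the 6 above 0 in both libraries, 2 (MYO7A and CHRNA9) had an interval wholly below 0, beside 12.6% of all features. MYO7A, the most abundant, had 1.46 and 0.902 RPKM. CHRNA9, the receptor of efferent fibres on hair cells, had 0.863 RPKM in the R/r sample and 0.218 RPKM in the r/r sample, a ratio of -1.99 (-3.74 to -0.55), and TMC1 had the highest ratio with at least 20 reads, -0.13. SLC17A8 and ATOH1 were listed at 0 in the r/r sample after 1 read each in the R/r sample, and OTOF, which acts with the CACNA1D channel in exocytosis, was not analysed here. The part of hair cells in the result was not tested.

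Skeletal muscle genes, 6 of 10 with a feature, summed to 20.6 RPKM in the R/r sample and 16.0 RPKM in the r/r sample. MYH3, the most abundant, had the highest ratio at -0.10, and MYH1 was lower at -2.74 (-3.37 to -2.17). ACTA1 and MYOG, which define muscle fibres, were listed at 0 in the R/r sample and had 1 read each in the r/r sample. Heart muscle genes summed to 52.1 and 82.2 RPKM over 6 genes. The most abundant, MYH6 had a ratio of 1.06 (0.94 to 1.19) and TNNI3 had 0.13, while NPPA was listed at 0 in both libraries. Smooth muscle and pericyte genes summed to 181 and 179 RPKM over 8 genes with a median ratio of 0.06. Those with at least 20 reads ran from NOTCH3 at -0.19 to TAGLN at 0.44, and RGS5, the most abundant, had 0.00.

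Among the remaining tissues, osteoblast and osteocyte genes were lower in 11 of 12 cases, with a summed level of 1066 RPKM in the R/r sample and 697 RPKM in the r/r sample and a median ratio of -0.70. IBSP was the most abundant of them. COL1A1 (-1.21), DMP1 (-1.11) and MEPE (-3.14) were at least 2-fold lower, whereas SPP1 was higher at 0.27. At least 2-fold lower were 3.89% of all features, or 1.86% of those with at least 20 reads. The interval lay wholly below 0 for 11 bone genes and wholly above 0 for 1, beside 12.6% and 9.77% of all features. The part of bone in the result was not tested. Cartilage genes summed to 6292 and 5586 RPKM over 6 genes with a median of -0.16. The 4 with at least 20 reads ran from ACAN at -0.61 to COL11A2, the most abundant, at -0.08, and the 2 others were over 2-fold higher, COMP with 1 and 9 reads (3.32, 0.47 to 8.77) and MATN1 with 1 and 7 reads. Photoreceptor genes summed to 20.9 and 17.9 RPKM over 6 genes, mostly RCVRN, which had a ratio of -0.21, and GNAT1 had -0.73, while CRX was listed at 0 in both libraries. Endothelial genes summed to 222 and 214 RPKM over 5 genes with a median of -0.01, from VWF at -0.73 to TEK at 0.24, and CLDN5 was the most abundant. Among the lists of this paragraph the bone genes had the lowest median, with SPP1 going the other way. The hair cell and skeletal muscle lists had medians of -0.64 and -0.42, and differences between lists were not tested.

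**Figure D4:**
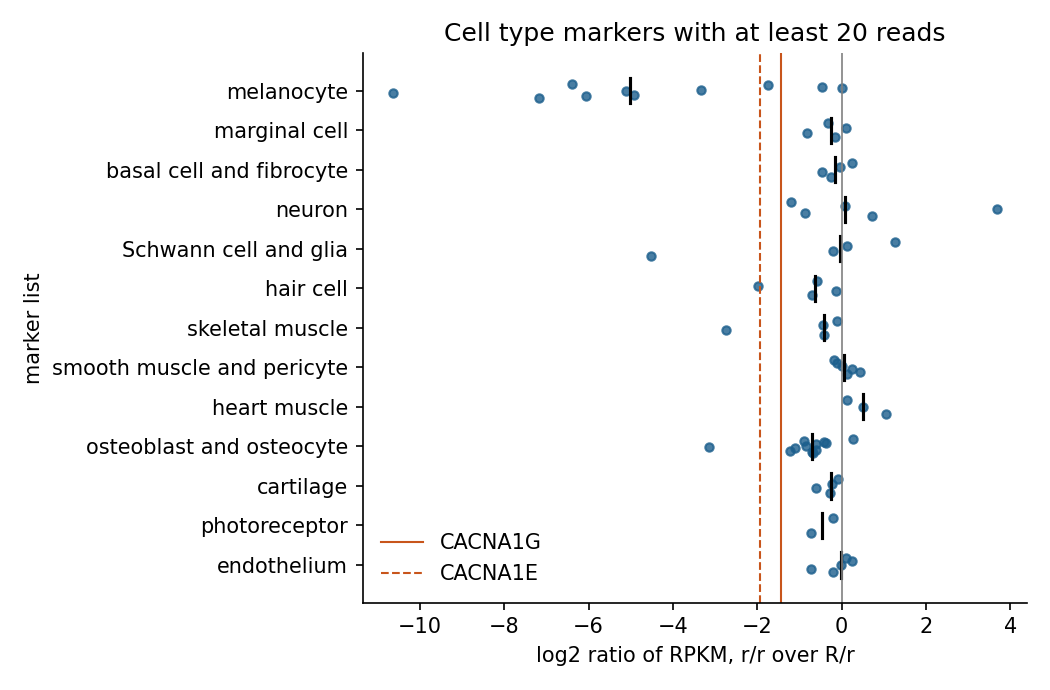
Log2 ratio of RPKM, r/r over R/r, of marker genes with at least 20 reads over both libraries, 1 point per gene, with the median of each list as a black bar and the ratios of CACNA1G (-1.43) and CACNA1E (-1.94) as orange lines. The melanocyte list lies mostly to the left of both lines. At least 2-fold lower are 3 of the 12 osteoblast and osteocyte genes, beside 1.86% of all features with at least 20 reads.

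The genes next to CACNA1G were looked up after the values were seen, by the order of protein-coding genes in RefSeq on Sscrofa11.1. ABCC3, an organic anion transporter and the next gene on one side, had 5.62 RPKM in the R/r sample and 2.49 RPKM in the r/r sample, from 420 and 168 reads. Its log2 ratio was -1.17 (95% interval -1.44 to -0.91). The 5 other genes within 3 places of CACNA1G, namely MYCBPAP, EPN3, SPATA20, ANKRD40 and LUC7L3, had ratios between -0.27 and 0.04. Over the 8 members, 39 neighbours within 3 places were above 0 in both libraries, of which ABCC3 was the 1 gene at least 2-fold lower and CACNA2D4, with 1 and 2 reads, the 1 gene at least 2-fold higher, beside 3.89% and 3.78% of all features. Nothing is read from these counts, and whether reads of adjacent genes were assigned by strand is not given in the sources used here.

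The 5 named genes closest to CACNA1G in log2 RPKM of both libraries, out of 13485, were SNORD16, snoZ30, RASAL3, RAB37 and GFRA2, at distances from 0.09 to 0.22. Both small nucleolar RNAs rest on 3 and 1 reads. RASAL3, a Ras GTPase activating protein of blood cells, had 1.93 RPKM in the R/r sample and 0.744 RPKM in the r/r sample, with a ratio of -1.38 (-2.09 to -0.70). RAB37 had a ratio of -1.69 (-3.14 to -0.44), and GFRA2, a receptor of neurturin, had -1.39 (-2.59 to -0.31). With only 2 libraries this likeness means a similar level in each and no more.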

How the data were processed

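RNA of dissected cochlear lateral walls, which contain the SV, was sequenced in 1 library per genotype. Filtered reads were mapped by the authors to the pig assembly Sscrofa10.2 with TopHat2 2.0.7, as the submitters' processing notes name it, and RPKM values per feature were deposited. The counting program, annotation and use of strand are not given in the sources used here. The table holds 2 more columns without headings, the authors' own comparison for 22 genes, which were not used. Members and lists were chosen with earlier results of these data known.

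Deposited RPKM values of r/r were divided by those of R/r and put on a log2 scale for features above 0 in both libraries, with 2-fold as the threshold. Whole reads were recovered from the smallest length of 50 to 40000 bases that made the reads of both libraries whole within a relative error of 2e-08 plus the last printed decimal. Lengths were whole for 51.9% of 1000 features used to find the library totals, and 11 of 13 mitochondrial genes had whole reads at their RefSeq length. Reads were found for all 20862 features above 0, 89.4% (R/r) and 89.3% (r/r) of the totals. True reads can be a common multiple, which would narrow the intervals. The steps were tested on simulated data.

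Symbols came from the table (16376 features), the description (320) or the Ensembl name table (1618), with CACNLB1 read as CACNB1 and KIR1.2 as KCNJ10. Outside the members, the feature with the highest mean RPKM stood for a symbol. Named genes are the members and, per list, the gene with the highest mean RPKM, those with the lowest and the highest ratio among genes with at least 20 reads, those at least 2-fold apart with an interval off 0, known partners of members, and the 5 genes nearest to CACNA1G by Euclidean distance. The other auxiliary subunits, MITF, STMN2, MATN1, S100B, MAGED1, MCAM, SOX9, genes listed at 0 or with 1 read in a library, and the neighbours were named after their values were seen. Of the lists, 4 genes are not reported here by themselves, 2 of which this rule would name, and they stay in the sums, medians and counts of their lists. Alternatives were pseudocounts of 0.1 and 1, minimums of 1 and 5 RPKM, 3 scalings, 1.5-fold and 4-fold thresholds and summed features; a minimum of 20 reads for counts, interval calls and table names alone were added after seeing the data. Computations used scipy 1.17.1, pandas 2.3.3 and numpy 2.4.6 in Python 3.11.15, and plots used matplotlib 3.10.9.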

Additional observations from a re-analysis of the deposited data

How the results depend on the processing

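No paired analysis was possible because each genotype had 1 library. The log2 ratio of CACNA1G stayed between -1.47 and -1.31 except with a pseudocount of 1 RPKM, which gave -0.76, by construction, since the added value is of the size of the RPKM values. With a minimum of 5 RPKM it had no value. The number of alpha1 genes at least 2-fold lower, 3, was 0 when 1 RPKM was added to the values, 1 when at least 1 RPKM was required, 0 when 5 RPKM was required, 0 at 4-fold, 2 with a pseudocount of 0.1 and 4 at 1.5-fold, where CACNA1I was added. The number at least 2-fold higher, 0, became 1 at 1.5-fold, which was CACNA1S. The minimum and the threshold act by construction. The median over the alpha1 genes was lowest at -0.70 with TPM scaling and closest to 0 at -0.16 with a pseudocount of 1, and was -0.30 with either minimum of RPKM and -0.46 with a pseudocount of 0.1.

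Of 45 values of other alpha1 genes under alternatives, 1 left its interval, CACNA1E with a pseudocount of 1 (-0.36). None of the 45 had another sign. Of 168 list medians, 7 left the median interval of their list and 7 had another sign. All log2 ratios were shifted by -0.02, -0.02 and 0.04 before scaling by the median ratio, the upper quartile and TPM. Alternatives added after seeing the data, with 20 reads as a minimum or names from the table alone, gave 2 genes at least 2-fold lower, and intervals wholly below 0 gave 3. On the recovered reads, depth limits CACNA1A, CACNA1C, CACNA1F, CACNA1I and CACNA1S. Their intervals include both no change and a 1.5-fold difference in at least 1 direction.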
